A study of Oryza sativa Japonica Group with 6 samples.

Results

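A rice line that overexpresses OsSKIPa (named S58S in the labels) was set against the wild-type cultivar Zhonghua11 on Affymetrix rice arrays. The comparison uses the 4 arrays of these groups, 2 for each, out of 6 arrays in the series, and covers 57194 of the 57381 probe sets in the table, that is all except 123 control and 64 reporter probe sets. The overexpression seedlings were selected on 50 mM hygromycin, and no selection is stated for the wild type, so the transgene and the drug cannot be told apart. All plants were moved to hydroponics at 10 days of age and collected at 1 month. The remaining 2 arrays hold a line with suppressed OsSKIPa (S59R), selected on 50 mM G418. They enter the estimate of the spread, and their values are given beside those of the overexpression line. The promoter of the transgene and the number of independent transformants are not stated in the labels. The labels call the samples shoots in one place and whole plants in another.

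SKIP proteins are conserved nuclear proteins that take part in pre-mRNA splicing and in transcription, and OsSKIPa is the rice member named in the labels. Among the gene groups below, the JAZ proteins of the TIFY family hold back jasmonate-responsive transcription until the hormone triggers their breakdown through the receptor COI1. Metallothioneins are small cysteine-rich proteins that bind metal ions, and AMT proteins carry ammonium across the plasma membrane.

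The arrays had been brought to a common scale (trimmed mean 500.06 in each), with medians from 58.6 to 66.2. A level in one array is therefore relative to the rest of that array. As a measure of RNA quality, actin control probe sets gave 3' over 5' ratios of 3.43 and 3.73 for the overexpression line, against 2.86 and 2.75 for the wild type, so the groups did not overlap. The same ratio for GAPDH was 2.19 and 1.89 in the overexpression arrays and 1.87 and 1.81 in the wild-type arrays, and for cyclophilin it was 2.41 and 2.08 against 2.0 and 2.95. The part of these ratios in the differences below was not tested. No probe set carries the names OsSKIPa or OsSKIPb in the tables used, so the targeted gene was not analysed here. Biological repeats are named in the labels for the transgenic lines but not for the wild type, and p-values measure the spread between these samples only.

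Of the 57194 probe sets, 30359 were bright enough to test, which means above the array's own median in at least 2 of the 6 arrays, and 26835 were not tested. The median log2 difference between overexpression and wild type over the tested probe sets was -0.005. limma called 11 probe sets at an adjusted p of 0.05, 0.0362% of those tested, of which 8 were higher and 3 lower in the overexpression line, and 2156 had an unadjusted p below 0.05. With 2 arrays in each group, full separation of the groups is common even without a true difference. Both overexpression arrays lay above both wild-type arrays for 5729 probe sets (18.9%) and below both for 5832 (19.2%). Of these, 285 were at least 2-fold higher and 362 at least 2-fold lower on the log2 scale. The distance between the nearest arrays of the groups, called the gap here, reached 2-fold for 75 probe sets above and 80 below the wild type. The median standard error of a log2 difference was 0.18.

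TIFY5, a member of the JAZ group of the TIFY family, had the largest rise among the called genes. Its signal was 1634.3 and 792.5 in the overexpression arrays and 1.8 and 2.0 in the wild-type arrays. The log2 difference was 7.78 ± 0.32 (SE), with a limma adjusted p of 0.000205. With the wild type raised to its array median, the rise was at least 17.4-fold. In the suppression arrays TIFY5 read 1205.0 and 1275.4, and the overexpression line minus the suppression line was -0.12 (95% interval -0.87 to 0.62). The transcript was thus high in both transgenic lines and near the floor in the wild type.

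LOC4340325, a locus with no gene name in the tables, read 2021.3 and 2304.7 in the overexpression arrays and 7.1 and 30.0 in the wild-type arrays. The log2 difference was 6.86 ± 0.44 (limma adjusted p = 0.00224), at least 32.9-fold with the wild type at its array median. A second probe set of this locus read 171.4 and 165.0 against 157.1 and 174.7, a log2 difference of 0.02, so the probe sets of the locus disagree. The suppression arrays read 1834.2 and 1966.3 on the first probe set.

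LOC4331576, also without a gene name, read 124.7 and 152.4 in the overexpression arrays and 4.8 and 3.1 in the wild-type arrays (log2 difference 4.29 ± 0.37, limma adjusted p = 0.00915, at least 2.15-fold). Its signal was higher still in the suppression arrays, at 438.2 and 492.8. The difference between overexpression and suppression was -1.73 on the log2 scale (95% interval -2.57 to -0.88, adjusted p = 0.0325). The call of LOC4331576 against the wild type was lost without overexpression replicate 1 or 2 (limma adjusted p = 0.105 and 0.0777), without either suppression array (0.0718 and 0.0751) and with only the 4 arrays compared (0.331). The 5 other called rises were probe sets without a gene name, with log2 differences from 3.83 to 6.66. In 5 of 5 the suppression arrays also lay above both wild-type arrays. Each of the 5 shares the stem of its identifier with another of them, so they need not stand for 5 separate transcripts.

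**Figure D1:**
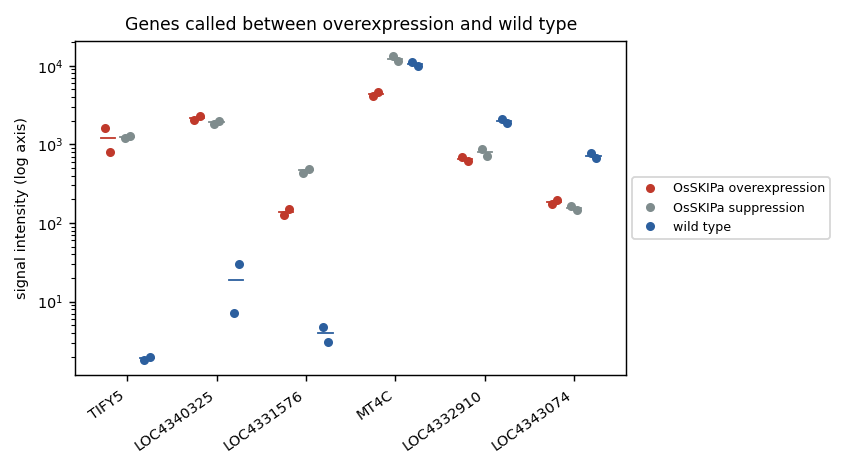
Signal intensity on a log axis for the 6 called genes in the overexpression, suppression and wild-type arrays. Each point is an array and each bar is a group mean. TIFY5, LOC4340325 and LOC4331576 are high in both transgenic lines, LOC4332910 and LOC4343074 are low in both, and MT4C is low in the overexpression arrays alone.

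The 3 called falls were MT4C, LOC4332910 and LOC4343074. MT4C, a metallothionein, read 4097.6 and 4575.6 in the overexpression arrays and 11327.4 and 9985.9 in the wild-type arrays. It fell by 1.30 ± 0.11 (SE) on the log2 scale, with a limma adjusted p of 0.00915. The suppression arrays read 13343.5 and 11404.5, and the overexpression line lay below the suppression line by a log2 difference of -1.51 (95% interval -1.76 to -1.26, adjusted p = 0.000765).

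LOC4332910 read 687.7 and 621.5 in the overexpression arrays and 2105.2 and 1846.7 in the wild-type arrays (log2 difference -1.59 ± 0.14, limma adjusted p = 0.011). LOC4343074 read 175.5 and 197.5 in the overexpression arrays and 767.5 and 665.5 in the wild-type arrays (log2 difference -1.92 ± 0.18, limma adjusted p = 0.0138). Neither has a gene name in the tables. Against the wild type, their log2 differences in the suppression line were -1.31 and -2.18. These comparisons with the wild type share its 2 arrays. Leaving out overexpression replicate 1 ended the calls of MT4C, LOC4332910 and LOC4343074 (limma adjusted p from 0.0907 to 0.131), and so did leaving out wild-type replicate 1 (0.0994 to 0.181). TIFY5 passed the test whichever single array was removed, with log2 differences between 7.26 and 8.30. Just outside the threshold stood 3 unnamed probe sets with log2 differences of 2.40 to 4.14 and limma adjusted p from 0.0512 to 0.0525.

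Genes with a name were then ordered by gap, and the 10 widest above and the 10 widest below the wild type are described. Of these 20 genes only TIFY5 and MT4C passed the test in the overexpression line, and the others are given as values. Since they were picked by their difference from the wild type, their order is no test. The second contrast, overexpression minus suppression, uses the same overexpression arrays and called 1987 probe sets, 6.55% of those tested.

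Above the wild type stood genes of iron reduction and sugar transport, 0sFRO1 and SWEET14. The ferric reductase gene 0sFRO1 read 526.5 and 580.5 in the overexpression arrays and 300.0 and 237.2 in the wild-type arrays. Its log2 difference was 1.04 ± 0.18 (limma adjusted p = 0.262). SWEET14, a sugar exporter, read 315.4 and 348.9 in the overexpression arrays and 180.6 and 187.7 in the wild-type arrays, a log2 difference of 0.84 ± 0.24 (limma adjusted p = 0.577). A second probe set of SWEET14 gave 0.56. Both SWEET14 arrays of the suppression line lay lower, at 73.1 and 101.0, and the difference between the lines was 1.91 (95% interval 1.37 to 2.45, adjusted p = 0.00463).

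RAB21, a dehydrin that accumulates in rice under water deficit and abscisic acid, read 324.8 and 288.4 in the overexpression arrays and 194.8 and 182.8 in the wild-type arrays. Its log2 difference was 0.69 ± 0.26 (limma adjusted p = 0.668), and a brighter second probe set gave 0.63. EXLA2, an expansin-like gene, read 492.9 and 491.8 in the overexpression arrays and 335.5 and 314.2 in the wild-type arrays, a log2 difference of 0.60 ± 0.15. RAB21 and EXLA2 were also higher in the overexpression line than in the suppression line, with log2 differences of 1.11 (adjusted p = 0.0451) and 0.83 (adjusted p = 0.0197).

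HAP2A, a subunit of the CCAAT-binding factor NF-Y, read 81.3 and 149.5 in the overexpression arrays and 13.3 and 47.6 in the wild-type arrays, with a log2 difference of 1.97 ± 0.71. HAK3, a potassium transporter, read 64.1 and 108.8 in the overexpression arrays and 40.7 and 16.9 in the wild-type arrays. HAK5, another potassium transporter, differed by 0.86 on this probe set and by -0.08 on a much brighter one, so its probe sets disagree. GT3 (1.43 ± 0.59) and DRB3, a double-stranded RNA-binding protein (1.25 ± 0.55), were dim, with no wild-type value above 27.8. On these 5 genes the standard errors were at least 0.45. HAP2A and GT3 exceeded the array median in the overexpression arrays alone, so they passed the brightness filter through that group. Their lack of overlap therefore carries no weight. With the wild type raised to its array median, they were at least 1.73-fold and 1.04-fold higher.

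Below the wild type, GPA3 had the widest gap, but its probe sets disagree. The dim probe set read 9.0 and 7.3 in the overexpression arrays and 70.3 and 58.1 in the wild-type arrays, a log2 difference of -2.56 ± 0.63. The bright one read 1188.5 and 1184.6 against 1303.7 and 1395.9, a log2 difference of -0.18. GPA3 takes part in the sorting of storage proteins in rice endosperm.

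NSHB1, a non-symbiotic haemoglobin, read 633.5 and 700.8 in the overexpression arrays and 1784.3 and 1744.3 in the wild-type arrays. The log2 difference was -1.40 ± 0.27 (limma adjusted p = 0.333), and 2 further probe sets gave -1.13 and -0.90. With only the 4 arrays of these groups in the fit, NSHB1 passed the test (limma adjusted p = 0.0194). Its suppression arrays, at 2684.0 and 1323.4, differed more from each other than those of the wild type. OPR-1, of the oxophytodienoate reductase family, read 347.5 and 258.0 in the overexpression arrays and 967.3 and 827.0 in the wild-type arrays, a log2 difference of -1.57 ± 0.23 (limma adjusted p = 0.135), with -0.94 on a second probe set.

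The ammonium transporter AMT1-2 read 124.6 and 232.0 in the overexpression arrays and 517.8 and 550.8 in the wild-type arrays. The log2 difference was -1.63 ± 0.27 (limma adjusted p = 0.2). In the suppression arrays AMT1-2 read 1122.1 and 905.9, so the lines lay on opposite sides of the wild type, and the difference between them was -2.54 (95% interval -3.16 to -1.93, adjusted p = 0.00247). Of the 10 genes below the wild type, 5 also differed from the suppression line, and so did 4 of the 10 above. Both sets were picked on the same overexpression arrays, so these counts are no test.

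The remaining genes with wide gaps below the wild type were dimmer or less even. TIFY9 averaged 37.4 ± 7.35 in the overexpression arrays and 140.9 ± 83.6 in the wild-type arrays (SD, n = 2 each). WOX6, a WUSCHEL-related homeobox gene, read 49.2 and 49.1 in the overexpression arrays and 105.0 and 98.0 in the wild-type arrays. CCD8A, a carotenoid cleavage dioxygenase of the group that makes strigolactone precursors, read 6.2 and 39.2 in the overexpression arrays and 73.0 and 90.3 in the wild-type arrays. For HCT3, a log2 difference of -1.21 on one probe set stood against 0.32 on another, and for C3H65 a difference of -1.58 stood against 0.00. WOX6 and the lower C3H65 probe set exceeded the array median in the wild-type arrays alone. They passed the brightness filter through that group, so their lack of overlap carries no weight.

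**Figure D2:**
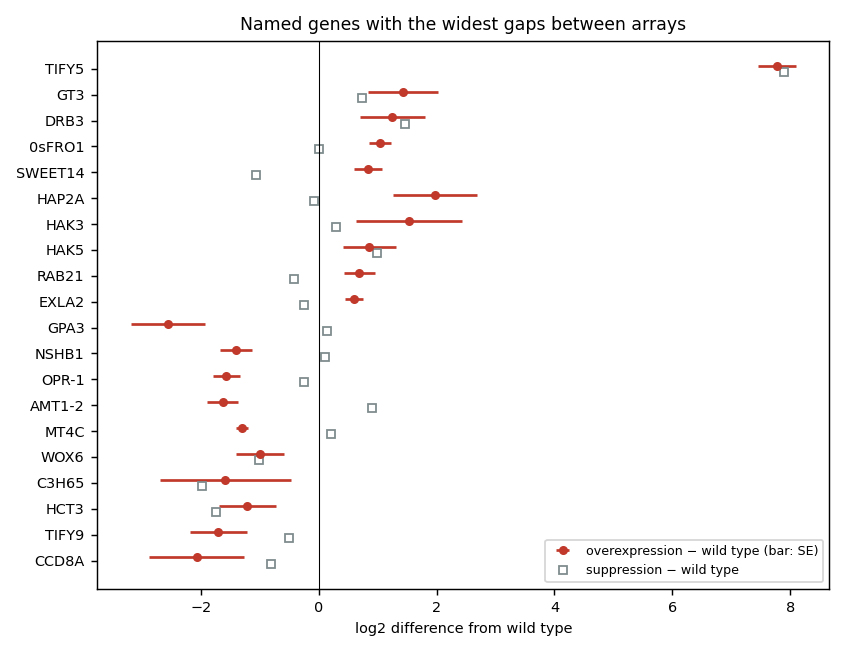
Log2 difference from the wild type of the 20 named genes with the widest gaps, for the overexpression line (filled points, bars are SE) and for the suppression line (open squares). Genes such as TIFY5, DRB3, WOX6 and HCT3 lie on the same side in both lines, while AMT1-2 (-1.63 against 0.91) and SWEET14 (0.84 against -1.07) lie on opposite sides.

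Gene families and processes were described through 69 lists of genes matched by name, with 1 probe set a gene, the brightest. Of 16099 genes tested, both overexpression arrays lay above both wild-type arrays for 19.5% and below both for 19.1%, and the median log2 difference was -0.004. Counts in a list are read against these shares. No member of any list other than TIFY5 and MT4C passed the test, where 0.0373% of all genes did, so the lists are described by medians and by the consistency of the arrays. With few genes in a list, shares move a good deal with a single member.

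**Figure D3:**
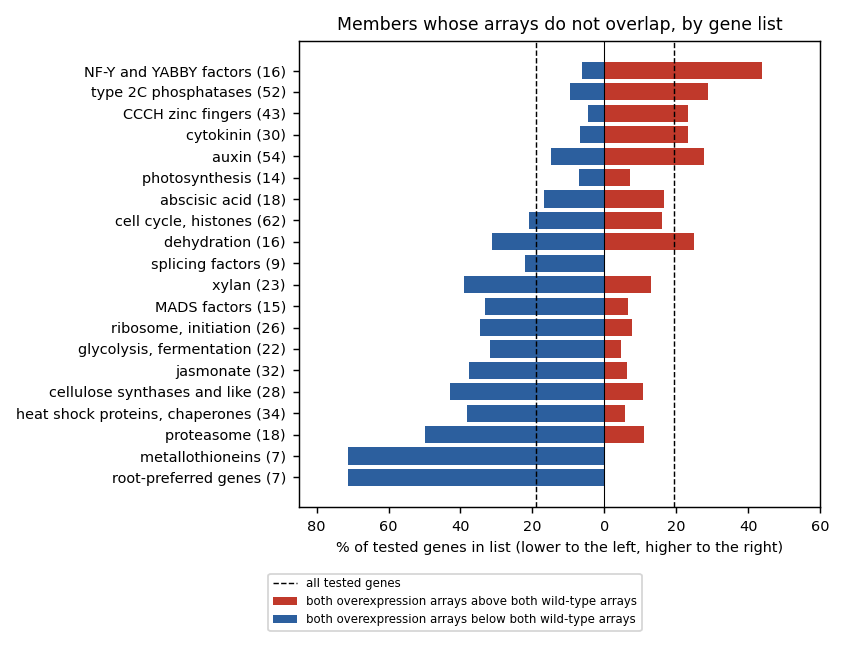
Share of the tested genes of 20 lists whose overexpression arrays both lay below (left) or above (right) both wild-type arrays, with the number of tested genes in brackets. Dashed lines mark all tested genes (19.1% lower, 19.5% higher). Metallothioneins and root-preferred genes reach 71.4% on the lower side, and NF-Y and YABBY factors reach 43.8% on the higher side.

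Jasmonate genes lay lower more often than higher in the overexpression arrays, and TIFY5 stood against that direction. Of 32 tested genes of the list, 12 had both overexpression arrays below both wild-type arrays and 2 had both above, and the median log2 difference was -0.26. Among the 13 tested TIFY genes the median was -0.96, with 5 below and 1 above. Among the 14 tested genes listed by name under jasmonate synthesis and activation it was -0.26, with 6 below and 0 above. That group takes in OPR genes by family name, and the part of each in jasmonate synthesis was not checked. The 5 receptor and factor genes had a median of 0.02.

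BHLH148, a transcription factor of this list, read 133.9 and 133.4 in the overexpression arrays and 451.8 and 183.1 in the wild-type arrays, a log2 difference of -1.09 ± 0.37. The wild-type arrays stood apart from each other on the whole list, since replicate 1 exceeded replicate 2 by a median of 0.43 on the log2 scale. Without wild-type replicate 1 the median difference of the list was 0.00, and without wild-type replicate 2 it was -0.43. OPR-1 and TIFY9 lay below both wild-type arrays by gaps of 1.24 and 0.89. The 6 tested WRKY factors showed the same split between the wild-type arrays, by a median of 1.04, and none of them had arrays that did not overlap.

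**Figure D4:**
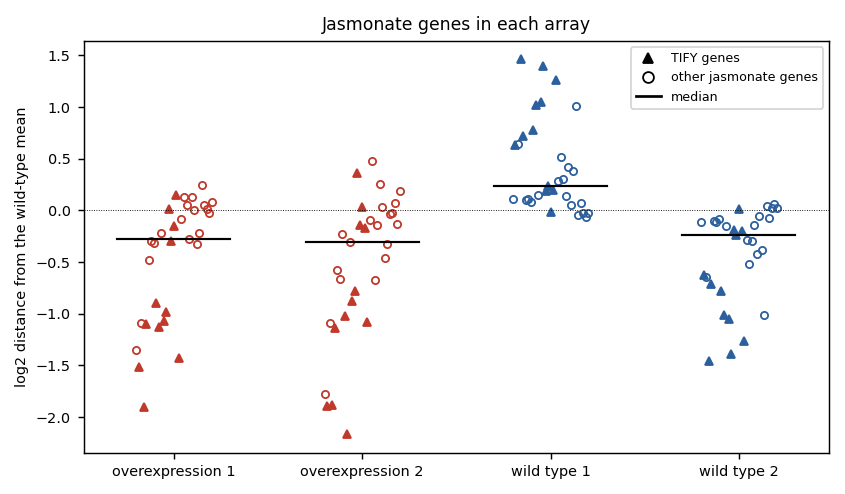
Log2 distance of the jasmonate genes from their wild-type mean in each array, without TIFY5, for TIFY genes (triangles) and other genes (circles), with the median as a bar. The overexpression arrays lie mostly below 0. By construction the wild-type arrays mirror each other around 0, and many TIFY genes are high in wild type 1 and low in wild type 2.

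Of the 7 metallothioneins, 5 had both overexpression arrays below both wild-type arrays, 0 had both above, and the median log2 difference was -0.13. The size differed widely within the family. After MT4C, MT1B had the next largest difference, with 6703.7 and 8021.1 in the overexpression arrays and 13128.0 and 11225.8 in the wild-type arrays, a log2 difference of -0.73 ± 0.11 (limma adjusted p = 0.176). MT-2 differed by -0.24 ± 0.14 and MT2C, among the brightest probe sets of the array, by -0.13 ± 0.09. MT4C, MT1B and MT-2 were also lower in the overexpression line than in the suppression line (adjusted p = 0.000765, 0.0258 and 0.0381). For MT-2 the log2 difference of the suppression line from the wild type was 0.4. MT4A, close to MT4C by name, read 1341.2 and 1628.9 in the overexpression arrays and 1395.3 and 1733.8 in the wild-type arrays, and those arrays overlapped.

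Of 46 tested genes of metal transport and chelation, 8 lay above (17.4%) and 13 below (28.3%) the wild type. Among all genes the shares were 19.5% and 19.1%. The list's median was -0.07, and 0.02 without wild-type replicate 1. NAS2, which makes the iron chelator nicotianamine, read 47.9 and 61.9 in the overexpression arrays and 334.2 and 113.6 in the wild-type arrays. ZIP1, a zinc transporter, read 805.6 and 945.0 in the overexpression arrays and 1891.3 and 1242.9 in the wild-type arrays. 0sFRO1 went the other way, as given above.

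Most tested genes preferred in roots lay lower in the overexpression arrays. Of the 9 genes in this list 7 were tested, 5 had both overexpression arrays below both wild-type arrays, 0 had both above, and the median log2 difference was -0.53. The summed signal of all 9 was 5206.0 and 6391.7 in the overexpression arrays and 10569.9 and 7135.7 in the wild-type arrays, so the groups did not overlap. Lsi1 alone made up most of each of these sums, so they mainly restate that gene. Of the other tested members, PHT1-2 and NAAT1 had overlapping arrays. NRT2.3, too dim to be tested, went the other way, with 60.3 and 74.8 in the overexpression arrays and 37.1 and 30.1 in the wild-type arrays. The silicon transporter gene Lsi2 read 632.6 and 540.0 in the overexpression arrays and 1410.7 and 832.0 in the wild-type arrays. Lsi1, the silicon influx channel of roots, read 3662.3 and 4646.8 in the overexpression arrays and 7418.7 and 4743.7 in the wild-type arrays, and its gap was the narrowest of the 5.

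IRO3, an iron-deficiency transcription factor, read 103.9 and 121.1 in the overexpression arrays and 136.7 and 196.6 in the wild-type arrays. YSL15, an iron chelate transporter, read 18.1 and 43.9 in the overexpression arrays and 70.0 and 45.4 in the wild-type arrays. The wild-type arrays differed by a median of 0.51 on this list, with replicate 1 higher, and the list's median was -0.51 without replicate 1 and -0.85 without replicate 2. Root genes were thus present in all arrays of samples that the labels also call shoots, and fewer root cells and less RNA per cell cannot be told apart. Markers of shoot summed to 98586.5 and 105440.7 in the overexpression arrays and 100293.8 and 109689.9 in the wild-type arrays, and of 9 tested 1 was higher and 0 were lower. Of the 11 flower markers, 6 lay below the array median on every array.

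**Figure D5:**
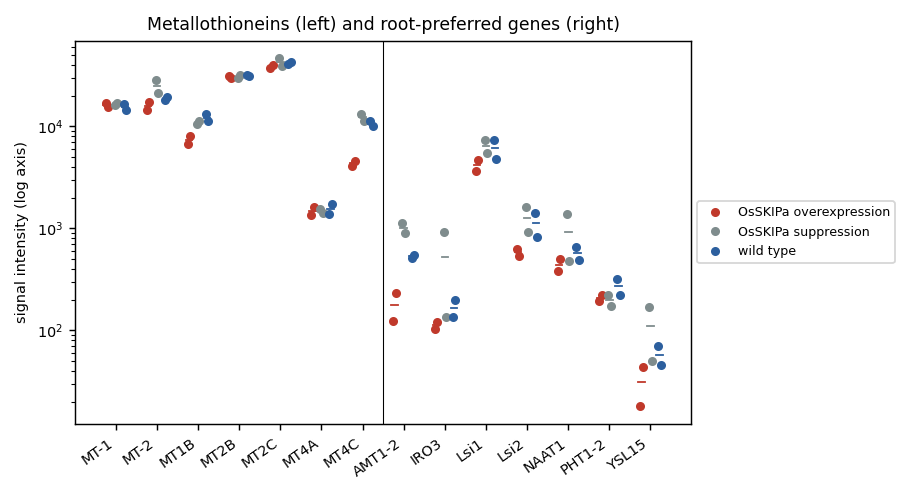
Signal intensity on a log axis of the 7 metallothioneins (left) and the 7 tested root-preferred genes (right) in the overexpression, suppression and wild-type arrays. Points are arrays and short bars are means. For MT4C, MT1B, AMT1-2 and Lsi2, among others, both overexpression arrays lie below all other arrays.

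Nitrogen genes lay on both sides of the wild type, with a median log2 difference of 0.02. Of 21 tested, 6 lay above (28.6%) and 5 below (23.8%), against 19.5% and 19.1% of all genes. Among ammonium transporters, AMT1-2 stood lowest and AMT3-2 next, at 260.8 and 238.8 in the overexpression arrays and 350.0 and 333.6 in the wild-type arrays (log2 difference -0.45 ± 0.20). Against the suppression line AMT3-2 was lower by a log2 difference of -1.31 (adjusted p = 0.0101). The suppression line itself differed from the wild type by 0.86 for AMT3-2. AtNLP3, an NLP regulator of nitrate responses, read 4841.5 and 3805.7 in the overexpression arrays and 3046.6 and 3091.6 in the wild-type arrays (log2 difference 0.48 ± 0.12).

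Genes of cellulose and xylan lay lower more often than higher, by small amounts. Of 28 tested cellulose synthase and cellulose synthase-like genes, 12 had both overexpression arrays below both wild-type arrays (42.9%) and 3 had both above (10.7%). Their median was -0.09. CESA2 read 321.7 and 271.8 in the overexpression arrays and 483.5 and 398.7 in the wild-type arrays (log2 difference -0.57 ± 0.18), but a second probe set of CESA2 gave -0.05. CSLA9 differed by -0.42 ± 0.18, and CSLD1, a dim gene, by -0.75 ± 0.44. Of 23 xylan genes 9 lay below (39.1%) and 3 above (13.0%), with a median of -0.09. TBL3, of the family of wall acetyltransferases, differed by -0.46 ± 0.20. Phenylpropanoid and lignin genes had 2 above and 1 below of 26 tested. Expansins and xyloglucan enzymes, with 6 below (25.0%, near the 19.1% of all genes) and 4 above of 24, had a median of -0.05, which was 0.12 without overexpression replicate 2. EXPB6 of that list stood at 1580.3 and 1355.3 in the overexpression arrays against 1974.3 and 2158.9 in the wild-type arrays. The suppression line had positive medians against the same wild-type arrays for the cellulose and xylan lists, 0.22 and 0.14.

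Chaperone, proteasome and ribosome genes also lay below more often than above, by small amounts. Of 34 tested heat shock proteins and chaperones, 13 lay below (38.2%, against 19.1% of all genes) and 2 above, with a median of -0.10. HSP24.1, a small heat shock protein, read 164.2 and 93.4 in the overexpression arrays and 235.9 and 278.9 in the wild-type arrays (log2 difference -1.03 ± 0.28). CLPB3, a chaperone that dissolves protein aggregates, differed by -0.47 ± 0.22. Of 18 proteasome genes 9 lay below (50.0%) and 2 above, with a median of -0.08. On this list wild-type replicate 1 differed from replicate 2 by a median of -0.07, about as much. PAA1 lay below, with 4173.6 and 3952.4 in the overexpression arrays and 4542.3 and 5065.0 in the wild-type arrays (log2 difference -0.24 ± 0.09). Of 26 genes of the ribosome and translation initiation 9 lay below (34.6%) and 2 above, with a median of -0.04. The wild-type arrays differed on them by a median of -0.02. RPL5A differed from the wild type by -0.21 ± 0.08.

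Glycolysis and fermentation genes lay below in 7 of 22 cases (31.8%) and above in 1, with a median of -0.08, which was 0.00 without overexpression replicate 2. GAPC3, a cytosolic glyceraldehyde-3-phosphate dehydrogenase, read 8423.9 and 7851.0 in the overexpression arrays and 10740.3 and 10115.2 in the wild-type arrays (log2 difference -0.36 ± 0.09), with a log2 difference from the suppression line of -0.54 (adjusted p = 0.0129). The 3 probe sets of GAPC3 disagree, since their log2 differences from the wild type ran from -0.57 to 0.24. Adh2, an alcohol dehydrogenase, differed by -0.38 ± 0.14. Genes of diterpene phytoalexin synthesis, the antifungal compounds of rice, had a median of -0.38 over 10 tested, with 4 below and 1 above, and of 0.02 where no filter on dim probe sets was used. CYP76M7 read 116.0 and 80.0 in the overexpression arrays and 158.1 and 313.0 in the wild-type arrays. The MADS factors had a median of -0.21 over 15 tested, with 5 below and 1 above, and MADS57 read 105.1 and 79.9 in the overexpression arrays and 217.4 and 140.2 in the wild-type arrays. Of heat stress factors 5 of 19 lay below (26.3%) and 4 above (21.1%), against 19.1% and 19.5% of all genes. HSFB2C read 352.6 and 278.6 in the overexpression arrays and 563.2 and 571.4 in the wild-type arrays. Its log2 difference was -0.85 ± 0.20, with -1.11 to -0.15 over its 3 probe sets.

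Some families had more members above than below the wild type, again by small amounts. Of 52 type 2C protein phosphatases, 15 lay above (28.8%) and 5 below (9.62%), against 19.5% and 19.1% of all genes. The median was 0.03, close to the -0.004 of all genes. This family includes the negative regulators of abscisic acid signalling. PP2C47 read 2132.1 and 1955.9 in the overexpression arrays and 1486.8 and 1429.7 in the wild-type arrays (log2 difference 0.49 ± 0.12, and 0.20 on a second probe set). PP2C08 read 572.4 and 479.0 in the overexpression arrays and 387.4 and 309.6 in the wild-type arrays. PP2C08 was still higher in the suppression line (log2 difference between the lines -0.77, adjusted p = 0.0415).

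Of 43 CCCH zinc finger genes, which encode RNA-binding proteins among others, 10 lay above and 2 below, with a median of 0.02. The 23.3% above is near the 19.5% of all genes. C3H37 read 2714.5 and 3257.5 in the overexpression arrays and 2168.1 and 2033.1 in the wild-type arrays (log2 difference 0.50 ± 0.13). C3H2 read 4825.1 and 5018.7 in the overexpression arrays and 3872.3 and 3932.1 in the wild-type arrays (log2 difference 0.33 ± 0.10). Neither passed the test against the wild type (limma adjusted p = 0.527 and 0.607). Both were higher than in the suppression line, by 1.28 (adjusted p = 0.00193) and 0.81 (adjusted p = 0.00435). The suppression line itself differed from the wild type by -0.78 for C3H37 and -0.48 for C3H2 (limma adjusted p = 0.0232 and 0.0515).

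Of 16 NF-Y and YABBY factors, 7 lay above (43.8%) and 1 below (6.25%), with a median of 0.11. Among all genes the shares were 19.5% and 19.1%. HAP2A, counted above, passed the brightness filter through the overexpression arrays alone. After HAP2A, HAP3F had 358.9 and 411.7 in the overexpression arrays and 313.9 and 245.9 in the wild-type arrays (log2 difference 0.46 ± 0.19). Of 30 cytokinin genes 7 lay above, also 23.3%, and 2 below (median 0.08), with the receptor HK5 at 1728.2 and 1663.1 in the overexpression arrays and 1408.6 and 1444.1 in the wild-type arrays. Of 54 auxin genes 15 lay above (27.8%) and 8 below (14.8%), with a median of 0.05. Among the 24 tested Aux/IAA repressors 8 lay above and 1 below, with IAA1 at 4268.8 and 3981.0 in the overexpression arrays and 2976.2 and 3225.9 in the wild-type arrays (log2 difference 0.41 ± 0.10, and 0.17 on a second probe set). The auxin response factor ARF16 read 706.2 and 612.1 in the overexpression arrays and 343.3 and 476.5 in the wild-type arrays.

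The 4 photoreceptor genes had a median of 0.19. PHOT1A, a blue-light receptor, read 3906.8 and 4023.1 in the overexpression arrays and 3009.2 and 3175.4 in the wild-type arrays (log2 difference 0.36 ± 0.10). Against the wild type PHOT1A did not pass the test in the overexpression line (limma adjusted p = 0.556). It was higher than in the suppression line by 1.47 (adjusted p = 0.000578). The suppression line itself differed from the wild type by -1.11 for PHOT1A (limma adjusted p = 0.00228) and by -0.4 for PHYA. PHYA, a red and far-red light receptor, differed from the wild type by 0.34 ± 0.14 (0.06 on a second probe set) and from the suppression line by 0.74 (adjusted p = 0.0243). Of 7 tested clock genes 4 lay above and 1 below, with a median of 0.21, while of 12 flowering genes 0 lay above and 1 below. The clock gene below was PCL1, which read 1492.5 and 1331.2 in the overexpression arrays and 1941.3 and 2430.5 in the wild-type arrays (log2 difference -0.62 ± 0.15). CCA1 read 3764.2 and 4242.5 in the overexpression arrays and 3339.4 and 2955.5 in the wild-type arrays (log2 difference 0.35 ± 0.11), and PRR95 and PRR1 differed by 0.30 ± 0.09 and 0.23 ± 0.11. The labels do not state a time of day of collection.

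Genes of dehydration and abscisic acid lay on both sides of the wild type. Of 16 dehydration genes 4 lay above (25.0%) and 5 below (31.2%), against 19.5% and 19.1% of all genes, with a median of -0.06. LEA19, a late embryogenesis abundant gene, read 73.3 and 76.0 in the overexpression arrays and 5.5 and 58.5 in the wild-type arrays. DREB1G, a dehydration-responsive factor, read 26.0 and 37.1 in the overexpression arrays and 124.4 and 63.6 in the wild-type arrays. Of 18 abscisic acid genes 3 lay above and 3 below (16.7% each, near the shares of all genes), and aba1 differed by 0.29 ± 0.12. Of 9 splicing factors 2 lay below (22.2%, near the share of all genes) and 0 above, with a median of -0.04. SC34 read 9935.9 and 9499.3 in the overexpression arrays and 10682.8 and 11222.7 in the wild-type arrays.

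Photosynthesis genes (median -0.02 over 14 tested, 1 above and 1 below) and cell cycle and histone genes (median -0.01 over 62 tested, 10 above and 13 below) also stood near 0. Among genes often used as references, ACT1 read 12881.6 and 12823.0 in the overexpression arrays and 12523.4 and 13728.8 in the wild-type arrays (log2 difference -0.03 ± 0.08). UBQ5 differed by -0.14 ± 0.17 and GPI-A, a phosphoglucose isomerase, by -0.07 ± 0.12, with -0.87 on a dimmer probe set of GPI-A.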

How the data were processed

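Signal intensity was deposited by the authors on a linear scale for 57381 probe sets on 6 arrays. Per the labels, biotinylated cRNA came from 6 µg of total RNA. No source used here names the summarisation software. Before testing, 3.3 (a low value that 10% of all signals do not exceed) was added and the log2 taken, which understates fold changes of dim probe sets. limma 3.58.1 in R 4.3.3 (lmFit, eBayes with trend) fitted all 3 groups, with 3 residual degrees of freedom and 5.21 from the prior. P-values are two-sided and Benjamini-Hochberg adjusted across the tested probe sets, with a threshold of 0.05. The fit was checked on simulated data. Tables were made with Python 3.11.15.

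A platform table gave 22436 probe sets exactly 1 gene and 95 several. The gene table of assembly ASM3414082v1 held all 17905 genes and served only to name them, and 2457 had a name. The members and lists were chosen with earlier results of these data known. Genes that fell into a list by a shared name alone, such as haemoglobins among homeobox genes, were taken out after values were seen. Named were all called probe sets, the 10 widest gaps in each direction among genes with a name, up to 4 widest gaps in a list, and genes fixed singly. Lsi1, MT4A and the members of root markers named for overlap or dimness were chosen after their values were seen. The number of arrays limits the precision. Alternatives changed the pseudocount, scaling, filter, variance trend, arrays and replicate block.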

Additional observations from a re-analysis of the deposited data

Results flagged for a closer look

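Covered here are only the called probe sets and the 20 named genes with the widest gaps. They were picked by their difference from the wild type, and the contrast with suppression uses the same overexpression arrays. Their count is therefore not read against the 6.55% of all tested probe sets that differed between the lines. Of them, 9 genes with a name and the locus LOC4331576 differed from the suppression line by limma's test of that difference. These were LOC4331576 (log2 difference overexpression minus suppression -1.73), MT4C (-1.51), 0sFRO1 (1.03), SWEET14 (1.91), RAB21 (1.11), EXLA2 (0.83), GPA3 (-2.71), NSHB1 (-1.50), OPR-1 (-1.33) and AMT1-2 (-2.54). GPA3 rests on a dim probe set, and its bright one gave -0.10 (adjusted p = 0.635). The second probe set of OPR-1 (limma adjusted p = 0.0891) and the 2 others of NSHB1 (0.0538 and 0.119) did not pass either, while those of SWEET14, RAB21 and EXLA2 did. The lines were selected on different drugs, so line and drug cannot be told apart.

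A reporter probe set, outside the comparison, read 12415 and 14859.8 in the overexpression arrays. The suppression line had 12.7 and 1.6, and the wild type had 1.4 and 4.4.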

How the results depend on the processing

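The count of 11 called probe sets stayed within 1.5 times under most settings. It was 3, all lower, where a probe set had to lie above the median in all 6 arrays, which drops transcripts near the floor in the wild type. It was 0 with limma's eBayes without a trend, with 2017 probe sets at an unadjusted p below 0.05. Leaving out 1 array gave 5 to 35 calls. The low of 5 came without overexpression replicate 1. Dropping overexpression replicate 2 gave 21, and dropping wild-type replicate 2 gave 35. Adding reporters, or leaving out a suppression array, was chosen after seeing the data. Without a filter, 9849 probe sets had no overlap above and 10401 below the wild type, among more probe sets. With 1 array fewer a group overlaps less by construction, and these counts were 10185 to 10445 above and 10222 to 11200 below. Over 32 named probe sets, 0 of 493 alternative values changed direction, 41 lost a call and 15 gained one. All 32 had groups that did not overlap. Leaving out an array, or changing the pseudocount or the variance trend, could therefore not reverse their direction. Labels give both groups the numbers 1 and 2, but arrays of one number did not deviate together (correlation -0.015 across probe sets), so the numbers are not taken to pair them. With the number as a replicate block 10 probe sets passed, of which 6 were among the 11. The block ended the calls of LOC4343074 (limma adjusted p = 0.103), LOC4331576 (0.0863) and 3 unnamed rises (0.059 to 0.145). Without wild-type replicate 1 the median of the jasmonate list was 0.00. Medians near 0 also changed sign with 1 array left out, to 0.04 for dehydration, 0.01 for splicing, -0.07 for nitrogen and 0.03 for the cell cycle. In simulated data most 1.5-fold changes were missed.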
